A study of Mus musculus with 19 samples.

Results

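Brown adipose tissue (BAT) of muscle-specific *Musclin* transgenic mice (MCK-Musclin) was compared with BAT of wild-type (WT) mice after both had been housed in the cold. The 6 BAT libraries, 3 per genotype, are 6 of the 19 libraries of the series, and 10893 of the 55487 genes in their table passed the filter of a mean of at least 1 FPKM over the 6 libraries. FPKM counts fragments per kilobase of exon and scales them to the mapped fragments of the library, so levels can be compared between genes per length. Comparison between libraries also depends on what else each library holds, and other scalings are given where they change a count. All mice were males of 5 months on chow diet, kept at 8 °C for 1 week. The WT mice carried no transgene. The MCK-Musclin mice carried the coding sequence of *Musclin* behind the promoter of muscle creatine kinase (MCK), which is active in skeletal muscle and heart, in a line backcrossed to C57BL/6J. Several founder lines were made, and the one used for these libraries is not given in the sources used here. The design text calls the 3 libraries of a group biological replicates. The same comparison in inguinal white adipose tissue (iWAT) and the single libraries of 7 tissues of WT mice on chow were used only where they bear on BAT.

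Brown adipocytes burn fatty acids and glucose in densely packed mitochondria. Uncoupling protein 1, the product of *Ucp1*, lets protons return to the mitochondrial matrix without making ATP, so that the energy of respiration leaves as heat. Noradrenaline from sympathetic nerves starts the process through β-adrenergic receptors, cyclic AMP and protein kinase A (PKA), which release fatty acids from lipid droplets and raise transcription of the thermogenic genes. Musclin, also called osteocrin and encoded by *Ostn*, is a peptide that skeletal muscle secretes. It binds the clearance receptor of the natriuretic peptides, and the study examined its action on fat through the transferrin receptor Tfr1 and PKA.

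The libraries fitted their labels as brown fat. *Ucp1* lay between 2778 and 3792 FPKM in all 6, against 467 FPKM in the single BAT library of WT mice on chow and 2.91 to 346 FPKM in the 6 cold iWAT libraries. These come from tables that were normalized separately, as do all levels set across tables here, so they are given side by side and not tested. Of 8 white adipocyte genes, 3 (*Lep*, *Nnat* and *Hoxc8*) passed the filter in cold BAT, so markers of white fat were not all absent. The inguinal and visceral fat markers *Hoxc10*, *Tcf21* and *Wt1* were listed at 0 in all 6. All genes of the mitochondrial genome, ribosomal and transfer RNAs included, held 50.6 to 52.0% of each library's summed FPKM. Depth cannot be read from FPKM, so the number of reads behind each value is unknown, and precision rests on the 3 libraries per group. Libraries correlated pairwise with r from 0.969 to 0.980 over log2(FPKM + 1). MCK-Musclin library 1 stood apart on the first principal component (28.0% of variance), at 28.7 against -14.0 to -0.52 for the other 5. Several list medians and counts are therefore given without it as well, but not every result that rests on it.

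The transgene is described first because its RNA checks the labels. *Ostn* lies on the plus strand of chromosome 16 (GRCm38, chr16:27307489-27351212) and has a transcript of 1423 bases in 5 exons, of which 393 bases are coding. The transgene holds the coding bases alone, while FPKM divides by the length of the whole gene model. The last 300 coding bases are shown because this is the RNA that sets the groups apart. They are taken from the GENCODE transcript, and the capitals mark the 184 bases (chr16:27324523-27324706) that also lie in an exon of the antisense gene *Gm32312*.

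Ostn: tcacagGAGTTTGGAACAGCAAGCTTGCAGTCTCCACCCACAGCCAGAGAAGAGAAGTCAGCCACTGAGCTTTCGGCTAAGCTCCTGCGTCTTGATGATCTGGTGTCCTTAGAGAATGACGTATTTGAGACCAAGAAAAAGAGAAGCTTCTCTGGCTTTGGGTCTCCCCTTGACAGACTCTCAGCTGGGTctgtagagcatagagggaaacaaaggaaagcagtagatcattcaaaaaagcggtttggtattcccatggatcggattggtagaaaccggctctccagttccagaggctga

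Reads were aligned without strand, but *Gm32312* was listed at 0 in all 6 BAT libraries. The MCK promoter belongs to *Ckm*, the muscle creatine kinase gene on chromosome 7, and the 250 bases before its start site are shown because this promoter sets where the transgene is transcribed. They come from RefSeq (GRCm38.p6, chr7:19410844-19411093, plus strand), and the promoter in the transgene is longer than this stretch. Capitals mark a match to CAGCTG, a form of the CANNTG motif that myogenic factors such as MyoD bind, and a match to TATATAA.

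Ckm: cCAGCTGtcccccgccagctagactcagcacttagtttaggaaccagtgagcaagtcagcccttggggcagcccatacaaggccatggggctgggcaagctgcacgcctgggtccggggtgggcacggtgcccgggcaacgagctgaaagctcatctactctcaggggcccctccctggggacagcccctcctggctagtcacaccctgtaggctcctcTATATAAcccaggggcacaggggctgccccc

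CAGCTG begins 249 bases and TATATAA 31 bases before the start site. Searched on both strands, CAGCTG occurs in 16.3% of the 32851 promoters of 300 bases in the same RefSeq table, TATATAA in 3.24%, and CANNTG, of which CAGCTG is a case, in 72.3%. These matches describe the letters only.

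*Ostn* rose in BAT of MCK-Musclin mice, and it was the single gene of 10893 (0.00918%) with an adjusted p under 0.05. It was listed at 0 FPKM in WT libraries 1, 2 and 3 and at 37.9, 31.6 and 30.3 FPKM in MCK-Musclin libraries 1, 2 and 3, a mean of 33.3 ± 4.06 FPKM (SD, n = 3) in the latter. The groups did not overlap, and every library fitted its label (limma, adjusted p = 3.83e-06). The exact two-sided permutation test of the means gave p = 0.1, the smallest that 3 libraries against 3 allow. No fold change is given, since *Ostn* was listed at 0 throughout the WT group. For comparison, the single tibialis anterior (TA) muscle library of WT mice on chow held 7.43 FPKM, and the WT BAT library on chow was listed at 0.

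Muscle genes were higher in BAT of the transgenic mice together with *Ostn*. Of 25 genes of fast and general skeletal muscle (contractile proteins, calcium handling and muscle metabolism), 24 passed the filter and all 24 had a log2 change above 0, with a median of 0.87 on the log2(FPKM + 1) scale and a range from 0.58 to 1.49. No member had an adjusted p under 0.05. At the study's cutoff for BAT, an unadjusted p under 0.05 with a log2 change beyond 0.3, 19 of the 24 were higher and none was lower, while the same cutoff took 1.85% of all genes tested as higher and 2.15% as lower. The groups did not overlap for 11 of the 24, against 4.38% of all genes that were higher without overlap. The median of all genes was -0.01.

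Summed over the 25 genes, WT libraries 1, 2 and 3 held 719, 1006 and 640 FPKM and MCK-Musclin libraries 1, 2 and 3 held 2324, 1057 and 1458 FPKM. All 3 transgenic libraries lay above all 3 WT libraries, although library 2 exceeded the highest WT library only narrowly. These sums are small beside muscle itself: they were 0.40 to 0.629% of the sum in the TA library for WT and 0.661 to 1.45% for MCK-Musclin, and the WT BAT library on chow stood at 0.440%. The muscle actin gene *Acta1* measured 46.3, 82.3 and 51.9 FPKM in WT and 223, 88.2 and 106 FPKM in MCK-Musclin BAT (log2 change 1.12, SE 0.36). The fast myosin gene *Myh1* measured 8.01, 22.4 and 17.0 FPKM in WT and 83.0, 24.9 and 37.8 FPKM in MCK-Musclin (log2 change 1.49, SE 0.48). *Ckm*, whose promoter drives the transgene, measured 11.3, 18.6 and 11.7 FPKM in WT and 36.5, 17.6 and 25.1 FPKM in MCK-Musclin, so that its groups overlapped (log2 change 0.86, SE 0.28).

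MCK-Musclin library 1 carried much of this. It was the highest of the 3 transgenic libraries for 21 of the 24 genes, with a median ratio of 1.93 to the mean of the other two (range 0.590 to 8.57), whereas for *Ostn* this ratio was 1.22. Without it the median log2 change of the 24 genes was 0.58 and 14 were higher at the cutoff. Without WT library 1 the number was 11, and without WT library 3 it was 10, with all 24 above 0 in each case. The 7 genes of slow muscle were also all above 0, with a median log2 change of 0.71, but none passed the cutoff. Their median was 0.17 without MCK-Musclin library 1, and 1.47 with all 7 past the cutoff without MCK-Musclin library 3. *Tnnt1*, the slow troponin T gene, measured 19.8, 20.5 and 6.77 FPKM in WT and 71.5, 25.5 and 8.51 FPKM in MCK-Musclin BAT.

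*Ostn* was more abundant beside the muscle genes in these fat libraries than in WT muscle. As a percentage of the summed FPKM of the 25 fast and general muscle genes it came to 1.63, 2.99 and 2.08% in MCK-Musclin BAT libraries 1, 2 and 3, against 0.00465% in the WT TA library. In iWAT, MCK-Musclin libraries 2 and 3 held 5.17 and 4.21 FPKM of *Ostn*, or 2.17 and 1.65% of their muscle sums of 238 and 255 FPKM. The iWAT library labelled MCK-Musclin 1 was listed at 0 for *Ostn*, with a muscle sum of 54.0 FPKM, so it went against its label on this gene. WT iWAT library 3 held the largest muscle sum of the 12 cold fat libraries, 5360 FPKM, with only 0.225 FPKM of *Ostn*. A muscle library of MCK-Musclin mice was not analysed here, so the ratio in the transgenic muscle is unknown, and whether the *Ostn* RNA in BAT lay in muscle fibres or in cells of the fat was not tested.

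**Figure D1:**
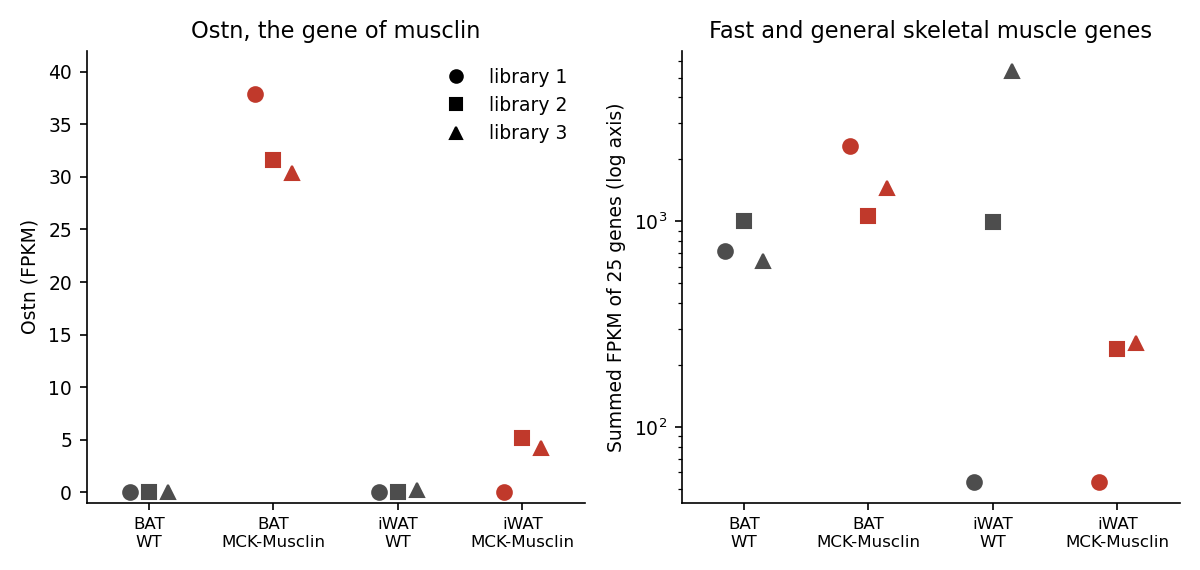
FPKM of *Ostn* (left, linear axis) and summed FPKM of the 25 fast and general skeletal muscle genes (right, log axis) in each cold BAT and iWAT library, with grey for WT, red for MCK-Musclin and the marker shape for the library number. *Ostn* is near 0 in every WT library and in the iWAT library labelled MCK-Musclin 1, and lies between 30.3 and 37.9 FPKM in MCK-Musclin BAT, while the muscle sum of BAT spans 640 to 2324 FPKM.

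Muscle genes outside the lists were counted as well. Of the 10893 genes, 174 (1.60%) had at least 10 times the level in the WT TA library that they had in the WT BAT library on chow (0.1 FPKM added to each). Among the 202 genes higher at the cutoff 57 were of this kind (28.2%), and among the 234 lower genes 3 were (1.28%). Without *Ostn* and the members of the fast and slow muscle lists, 37 of 182 higher genes (20.3%) and 147 of all 10861 genes (1.35%) were of this kind, and 120 of these 147 had a log2 change above 0, with a median of 0.31. The 10 largest increases whose groups did not overlap were *Ostn*, *Gm49450*, *Raver1*, *Lmod2*, *Myh1*, *Trdn*, *Ckmt2*, *Kcnj15*, *Mylk4* and *Acta1*. *Lmod2* (leiomodin 2, which elongates thin filaments), *Trdn* (triadin, of the calcium release complex of muscle), *Ckmt2* (mitochondrial creatine kinase of muscle) and *Mylk4* (a myosin light chain kinase) were all of the 174. The shares of the 174 genes among higher and lower genes were not computed without MCK-Musclin library 1. *Lmod2* measured 4.02, 8.95 and 4.79 FPKM in WT and 50.6, 12.4 and 9.88 FPKM in MCK-Musclin, so that library 1 was far the highest. Over the alternative settings the log2 change ran from 0.87 to 1.99 for *Lmod2* and from 0.61 to 1.46 for *Trdn*. *Mylk4* was spread more evenly, with 3.25, 3.16 and 1.70 FPKM in WT and 8.38, 5.62 and 6.97 FPKM in MCK-Musclin (log2 change 1.13, SE 0.21, adjusted p = 0.929).

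Genes outside muscle gave no call over all genes tested. No gene had an adjusted p under 0.05 in the lower direction (0%), while 533 genes (4.89%) had an unadjusted p under 0.05 in either direction. The groups did not overlap for 1090 genes (10%), 477 of them higher and 613 (5.63%) lower. Which side held more genes at the cutoff depended on the scaling: 46.3% of the genes past it were higher with FPKM as deposited, and 57.5% (241 higher, 178 lower) when the mitochondrially encoded genes were taken out and the libraries rescaled. A gene past the cutoff is therefore described by its values and not as changed.

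The abundant genes that mark brown adipocytes, *Ucp1* and *Cidea* among them, had changes near 0, while those of the weakly expressed markers were poorly bounded. All 15 passed the filter, with a median log2 change of -0.02 and a range from -0.35 to 0.16. For 10 of the 15 the 95% confidence interval of the change lay inside -0.5 to 0.5, a range that held 59.8% of all genes tested, so the share over the list was near that of all genes. *Ucp1* (GRCm38, chr8:83290352-83298452) measured 3792, 3095 and 2778 FPKM in WT and 3500, 2864 and 3607 FPKM in MCK-Musclin libraries. The groups overlapped, with means of 3222 ± 519 and 3324 ± 402 FPKM (SD, n = 3 each), a log2 change of 0.05 (95% interval -0.27 to 0.37) and an exact permutation p of 0.9. *Cidea*, which drives the fusion of lipid droplets and marks brown and beige fat, measured 3334, 2889 and 3386 FPKM in WT and 3141, 2829 and 3371 FPKM in MCK-Musclin (-0.04, interval -0.27 to 0.19).

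*Cox7a1*, a cytochrome c oxidase subunit of muscle and brown fat, measured 2169, 1887 and 1950 FPKM in WT and 1824, 2019 and 1961 FPKM in MCK-Musclin (-0.05, interval -0.24 to 0.15). *Elovl3*, a fatty acid elongase that cold induces, measured 135, 114 and 142 FPKM in WT and 122.9, 118 and 166 FPKM in MCK-Musclin (0.04, interval -0.30 to 0.39). *Kcnk3*, a potassium channel, and *Letmd1*, a mitochondrial protein of brown fat, both had changes of -0.00, with intervals of -0.28 to 0.28 and -0.25 to 0.25. *Cox8b*, the subunit VIIIb gene of cytochrome c oxidase, was the exception. It measured 843, 836 and 885 FPKM in WT and 571, 690 and 768 FPKM in MCK-Musclin, without overlap (-0.35, interval -0.61 to -0.08, unadjusted p = 0.0168, adjusted p = 0.968), and the change was -0.23 without MCK-Musclin library 1. The weakly expressed transcription factor genes had intervals too wide to place: *Prdm16*, at 3.51 to 9.41 FPKM, had a change of 0.16 with an interval of -0.53 to 0.85, and *Ebf2*, at 4.41 to 9.32 FPKM, had -0.31 with an interval of -0.83 to 0.21.

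**Figure D2:**
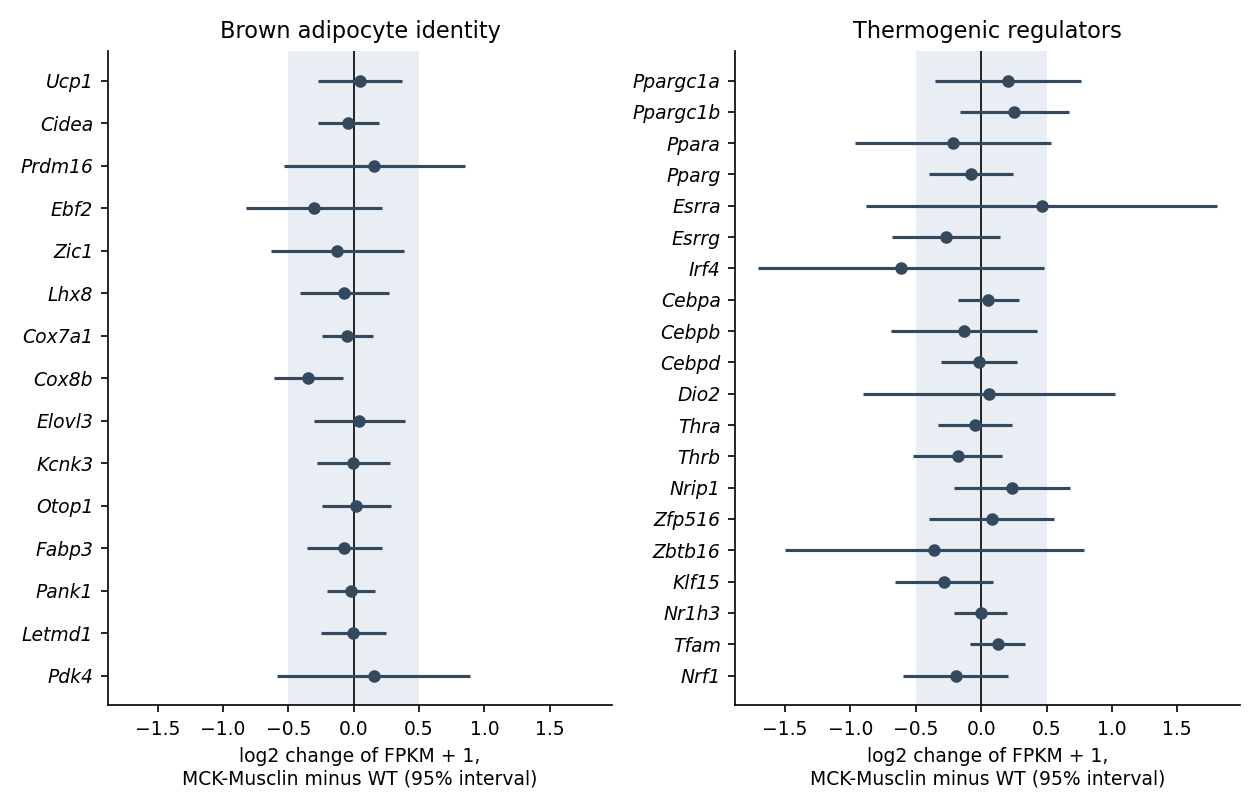
Log2 change of FPKM + 1, MCK-Musclin minus WT, in cold BAT with its 95% confidence interval (points and bars) for the 15 brown adipocyte identity genes (left) and 20 thermogenic regulators (right), with the range from -0.5 to 0.5 shaded. The bars of 10 identity genes and 6 regulators lie inside the shading, and among the 35 genes only the bar of *Cox8b* leaves out 0.

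Regulators of the program were not called in either direction. All 20 passed the filter, none reached the cutoff, and the median log2 change was -0.03, but only 6 intervals lay inside 0.5. With 1 library left out the median ran from -0.12 (without WT library 1, 3 genes lower at the cutoff) to 0.06 (without WT library 2, 1 gene higher). *Ppargc1a*, the coactivator PGC-1α that raises mitochondrial and thermogenic genes, measured 6.85, 12.8 and 9.70 FPKM in WT and 13.3, 12.4 and 8.27 FPKM in MCK-Musclin (0.20, interval -0.36 to 0.76). *Pparg*, the master factor of adipocyte differentiation, measured 63.5, 92.6 and 74.5 FPKM in WT and 73.7, 73.7 and 68.8 FPKM in MCK-Musclin (-0.08, interval -0.40 to 0.24). *Dio2*, which makes active thyroid hormone inside the cell, ranged from 16.4 to 50.3 FPKM within WT alone, so its change of 0.06 had an interval of -0.90 to 1.02. *Tfam*, the mitochondrial transcription factor, measured 10.6, 10.8 and 10.3 FPKM in WT and 11.4, 11.3 and 12.1 FPKM in MCK-Musclin, without overlap but with a change of 0.13 (interval -0.09 to 0.34).

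The adrenergic and PKA genes, through which cold reaches the adipocyte, had a median log2 change of 0.11 over the 17 of 19 that passed the filter, and none reached the cutoff. Without WT library 2 the median was 0.23 and 2 genes were higher at the cutoff, as were 2 without MCK-Musclin library 1, where it was 0.07. *Adrb3*, the β3-adrenergic receptor of fat, measured 22.7, 58.5 and 42.4 FPKM in WT and 29.0, 51.2 and 22.4 FPKM in MCK-Musclin (-0.25, interval -1.15 to 0.66), so that its interval took in changes of 0.5 in both directions. *Prkaca*, the main catalytic subunit of PKA, measured 66.1, 85.9 and 93.7 FPKM in WT and 95.02, 97.7 and 90.4 FPKM in MCK-Musclin (0.22, interval -0.09 to 0.53). *Gnas*, the stimulatory G protein, measured 499, 587 and 558 FPKM in WT and 602, 569 and 706 FPKM in MCK-Musclin (0.19, interval -0.06 to 0.44). *Prkar2b*, the regulatory PKA subunit of fat, measured 206, 227 and 321 FPKM in WT and 198, 222 and 193 FPKM in MCK-Musclin (-0.27, interval -0.66 to 0.11).

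The receptors through which musclin could act were expressed at modest levels in both genotypes, and none of the 4 genes that passed the filter reached the cutoff. *Tfrc*, which encodes Tfr1, the cell surface receptor for iron-loaded transferrin, measured 6.62, 6.84 and 5.29 FPKM in WT and 8.50, 4.59 and 9.37 FPKM in MCK-Musclin (0.18, interval -0.37 to 0.73). *Npr3*, the natriuretic peptide clearance receptor, measured 10.7, 11.2 and 13.0 FPKM in WT and 19.3, 13.9 and 8.99 FPKM in MCK-Musclin (0.20, interval -0.36 to 0.76). *Npr1*, the guanylyl cyclase receptor for atrial natriuretic peptide, measured 5.26, 4.51 and 5.0 FPKM in WT and 5.03, 3.98 and 5.38 FPKM in MCK-Musclin (-0.04, interval -0.35 to 0.27). *Nppa*, *Nppb*, *Nppc* and *Corin*, the natriuretic peptide genes and their protease, were listed at 0 in all 6 libraries. The 14 genes of iron handling had a median of 0.06, and none reached the cutoff. The sign of that median turned without MCK-Musclin library 1 (-0.09, 1 gene lower at the cutoff) and without WT library 2 (-0.05, 2 lower). *Fth1*, the ferritin heavy chain, measured 365, 323 and 355 FPKM in WT and 344, 356 and 306 FPKM in MCK-Musclin (-0.05, interval -0.26 to 0.16).

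Among lipolysis and lipid droplet genes 1 reached the cutoff, and most of the others lay slightly lower. Of 14 genes, 3 had a change above 0 and 11 below, with a median of -0.12, and 11 intervals lay inside 0.5. *Pnpla8* (GRCm38, chr12:44221370-44322532), a calcium-independent phospholipase of mitochondria and peroxisomes rather than a triglyceride lipase, measured 10.9, 7.67 and 10.7 FPKM in WT and 19.3, 17.0 and 18.0 FPKM in MCK-Musclin. Each transgenic library was above every WT library (log2 change 0.84, SE 0.14, unadjusted p = 0.000472, adjusted p = 0.839, exact permutation p = 0.1). *Pnpla2*, the adipose triglyceride lipase that begins lipolysis, measured 1045, 1061 and 1087 FPKM in WT and 886, 861 and 1040 FPKM in MCK-Musclin (-0.20, interval -0.41 to 0.01). *Cidec*, which enlarges lipid droplets, measured 596, 609 and 579 FPKM in WT and 474, 492 and 526 FPKM in MCK-Musclin, without overlap, at a change of -0.26 that is under the cutoff in size (unadjusted p = 0.00932, adjusted p = 0.929). *Lipe*, the hormone-sensitive lipase, and *Plin1*, the droplet coat that PKA phosphorylates, had changes of -0.08 (interval -0.34 to 0.17) and -0.00 (interval -0.24 to 0.24).

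Genes that bring in and oxidise fatty acids were close together. All 15 of lipid uptake passed the filter with a median of -0.08, none reached the cutoff, and 11 intervals lay inside 0.5. *Fabp4*, the fatty acid carrier of adipocytes, measured 5910, 5522 and 6174 FPKM in WT and 5503, 5289 and 5937 FPKM in MCK-Musclin (-0.07, interval -0.26 to 0.11). All 24 genes of fatty acid oxidation passed the filter and none reached the cutoff, with 22 intervals inside 0.5. Their median was -0.08, 21 of the 24 lay below 0, and the range ran from -0.25 to 0.06. *Cpt1b*, which admits fatty acids to mitochondria, measured 134, 129 and 120 FPKM in WT and 127, 109 and 135 FPKM in MCK-Musclin (-0.05, interval -0.29 to 0.19). *Acadl*, the long-chain acyl-CoA dehydrogenase, measured 1764, 1726 and 1730 FPKM in WT and 1632, 1648 and 1749 FPKM in MCK-Musclin (-0.05, interval -0.21 to 0.10). Without MCK-Musclin library 1 the median of the 24 was -0.04.

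Lipogenesis, which runs beside oxidation in cold brown fat, had a median of 0.00 over 22 genes, and 15 intervals lay inside 0.5. *Fasn*, the fatty acid synthase, measured 1043, 1040 and 866 FPKM in WT and 1029, 1209 and 855 FPKM in MCK-Musclin (0.06, interval -0.27 to 0.39). *Gpd1*, which makes glycerol 3-phosphate, measured 4054, 3714 and 3791 FPKM in WT and 3968, 3910 and 4114 FPKM in MCK-Musclin (0.05, interval -0.11 to 0.22). *Dgat2*, which completes triglyceride synthesis, was at the cutoff in the lower direction, with 244, 222 and 245 FPKM in WT and 188, 171 and 217 FPKM in MCK-Musclin (-0.31, interval -0.55 to -0.06, adjusted p = 0.968). A single library made *Agpat2* an outlier, at 1721 FPKM in WT library 2 and between 206 and 251.4 FPKM in the other 5. *Gapdh*, of glycolysis, was split between libraries, at 32.0 to 37.5 FPKM in 3 and 380 to 529 FPKM in the other 3.

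Glucose use, the tricarboxylic acid cycle and respiration also differed little at the median. None of the 26 genes of glucose uptake and glycolysis reached the cutoff, the median was -0.00, and 22 intervals lay inside 0.5. Their changes ran from -1.31 to 0.37, the lowest being that of *Gapdh*, whose split values left it with an SE of 1.23. *Slc2a4*, the insulin-dependent glucose transporter, measured 120, 100 and 109 FPKM in WT and 91.6, 91.8 and 116 FPKM in MCK-Musclin (-0.14, interval -0.42 to 0.14). None of the 19 genes of the tricarboxylic acid cycle reached it, with a median of 0.03 and 17 intervals inside 0.5. *Cs*, citrate synthase, measured 480, 471 and 474 FPKM in WT and 460, 514 and 481 FPKM in MCK-Musclin (0.03, interval -0.14 to 0.20).

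Of 46 nuclear genes of the respiratory chain and ATP synthase, 35 had a change below 0, the median was -0.06 and 37 intervals lay inside 0.5. At the cutoff 2 of the 46 were lower, against 2.15% of all genes. Both belong to cytochrome c oxidase, whose other subunits on this list did not reach the cutoff. *Cox5b* measured 685, 648 and 583 FPKM in WT and 449, 523 and 523 FPKM in MCK-Musclin (-0.36, SE 0.10, adjusted p = 0.929), and *Ndufa4* measured 206, 193 and 149 FPKM in WT and 134, 147 and 148 FPKM in MCK-Musclin (-0.34, adjusted p = 0.968). Without MCK-Musclin library 1 neither reached the cutoff, the median was -0.01 and 22 of the 46 were above 0. *Atp5b*, the β subunit of ATP synthase, measured 4986, 5489 and 4966 FPKM in WT and 4625, 5077 and 5055 FPKM in MCK-Musclin (-0.07, interval -0.25 to 0.12). The 13 genes of the mitochondrial genome had a median of -0.05, and 12 intervals lay inside 0.5. *mt-Co1* measured 38314, 39280 and 40693 FPKM in WT and 37437, 38293 and 38844 FPKM in MCK-Musclin.

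Taking the 11 lists on brown fat identity, its regulation, lipids, glucose and mitochondria together, 231 of 234 genes passed the filter. None had an adjusted p under 0.05, 1 (*Pnpla8*) was higher and 4 (*Cox8b*, *Dgat2*, *Ndufa4* and *Cox5b*) were lower at the cutoff, against 1.85% and 2.15% of all genes, and the median log2 change was -0.04. Of the 231, 149 had a change below 0, against 5693 of all 10893 genes. Without overlap 22 of the 231 were lower and 6 higher, against 5.63% and 4.38% of all genes. The interval lay inside 0.5 for 167 genes (72.3%, against 59.8% of all genes) and inside 0.3 for 79 (34.2%, against 12.3%). Highly expressed genes have narrower intervals, so the shares were set beside genes of the same level. At 100 FPKM and above, 117 of 141 program genes (83.0%) and 343 of 438 of all genes (78.3%) had intervals inside 0.5. From 20 to 100 FPKM the shares were 39 of 53 (73.6%) and 75.8%. From 5 to 20 FPKM they were 7 of 24 (29.2%) and 66.0%, and from 1 to 5 FPKM 4 of 13 (30.8%) and 48.0%. The differences between these shares were not tested, and the lowest bins hold few program genes.

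**Figure D3:**
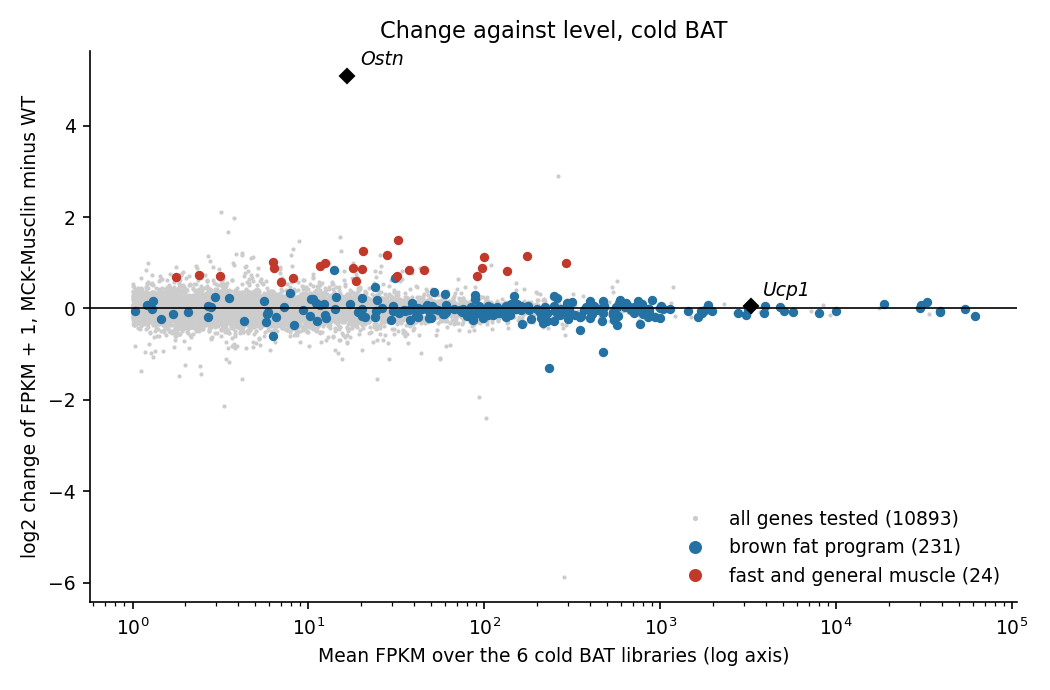
Log2 change of FPKM + 1, MCK-Musclin minus WT, against mean FPKM over the 6 cold BAT libraries (log axis) for all 10893 genes tested (grey), with the 231 program genes in blue, the 24 fast and general muscle genes in red and *Ostn* and *Ucp1* as black diamonds. The program genes cluster around a median of -0.04, all muscle genes lie above 0.5, and *Ostn* stands alone at the top.

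Heat can also come from futile cycles of creatine and calcium. Of the 4 creatine cycle genes that passed the filter, *Ckmt2* alone reached the cutoff, at 3.76, 5.99 and 3.26 FPKM in WT and 19.05, 7.17 and 8.82 FPKM in MCK-Musclin. *Ckmt2* is also a gene of muscle, with over 10 times the level in TA that it had in BAT on chow, and its 6 values ranked the libraries in the same order as the summed muscle genes, of which it is not one. The part of muscle RNA in its difference was not tested. *Ckb*, the brain-type creatine kinase of brown fat, measured 21.3, 12.4 and 19.4 FPKM in WT and 18.2, 10.4 and 30.3 FPKM in MCK-Musclin (0.06, interval -0.78 to 0.89), and *Alpl*, which releases creatine from phosphocreatine, had 0.15 (interval -0.27 to 0.56). None of 6 calcium cycling genes reached the cutoff, and the pump gene *Atp2a2* measured 34.0, 35.2 and 34.5 FPKM in WT and 43.8, 37.9 and 31.7 FPKM in MCK-Musclin (0.11, interval -0.17 to 0.40). Among 15 secreted factors none reached it, and *Nrg4*, the neuregulin that brown fat secretes, measured 85.7, 100.6 and 85.3 FPKM in WT and 98.8, 91.6 and 90 FPKM in MCK-Musclin (0.05, interval -0.17 to 0.27).

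Markers of other cells were examined because BAT holds vessels, nerves, blood and immune cells, and in bulk tissue fewer cells of a type and less RNA per cell cannot be told apart. Globin genes of red cells were higher in the transgenic group. Of the 5 red cell genes that passed the filter, 3 were higher at the cutoff, all globins, against 1.85% of all genes, and 4 were higher without overlap, against 4.38% of all genes. *Hba-a1* measured 940, 888 and 1157 FPKM in WT and 1364, 1346 and 1430 FPKM in MCK-Musclin (0.48, interval 0.23 to 0.73, adjusted p = 0.929). Its near-identical copy *Hba-a2* shares reads with it, so the division between the 2 genes is uncertain. Blood content was not tested as a part of these differences. The summed red cell genes held 1614, 1553 and 1978 FPKM in WT and 2326, 2293 and 2388 FPKM in MCK-Musclin. *Alas2*, the red cell enzyme of haem synthesis, measured 6.79, 8.25 and 9.55 FPKM in WT and 8.65, 9.0 and 7.80 FPKM in MCK-Musclin (0.05, interval -0.26 to 0.37).

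Immune and vascular genes gave isolated differences. *Csf1r*, the receptor for the macrophage growth factor, measured 2.08, 2.03 and 2.02 FPKM in WT and 3.79, 3.41 and 3.78 FPKM in MCK-Musclin, without overlap (log2 change 0.61, SE 0.11, unadjusted p = 0.000646, adjusted p = 0.88). The other 10 macrophage genes that passed the filter did not reach the cutoff, and the median of the list was 0.12, or -0.18 without MCK-Musclin library 1. *Adgre1*, which encodes F4/80, measured 0.967, 0.981 and 1.33 FPKM in WT and 3.03, 0.831 and 0.788 FPKM in MCK-Musclin, so library 1 alone was high. An exon of *Csf1r* overlaps one of *Hmgxb3*, and reads from the 2 genes cannot be told apart there. None of the B and T cell genes reached a mean of 1 FPKM. *Ifit2*, an interferon-induced gene, measured 0.991, 0.891 and 0.648 FPKM in WT and 2.43, 1.51 and 2.13 FPKM in MCK-Musclin (0.71, adjusted p = 0.929), while 8 of the 10 interferon genes that passed the filter had changes below 0. Every WT value of *Ifit2* lay below 1 FPKM, so this gene passed the filter through the MCK-Musclin group and its difference is uncertain. Of 12 endothelial genes, *Esam*, an endothelial adhesion molecule, was lower at the cutoff, with 10.5, 12.2 and 12.1 FPKM in WT and 9.03, 8.17 and 8.38 FPKM in MCK-Musclin (-0.40, adjusted p = 0.929), and *Pecam1* had -0.12 (interval -0.35 to 0.10). The medians were 0.09 for 13 fibroblast and matrix genes, -0.14 for 8 of smooth muscle and pericytes and 0.02 for 4 of nerve and Schwann cells, and none of these 25 genes reached the cutoff. The fibroblast median was -0.11 without MCK-Musclin library 1 and 0.29 without WT library 3, and with 1 library left out the other medians ran from -0.24 to -0.05 and from -0.09 to 0.16.

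**Figure D4:**
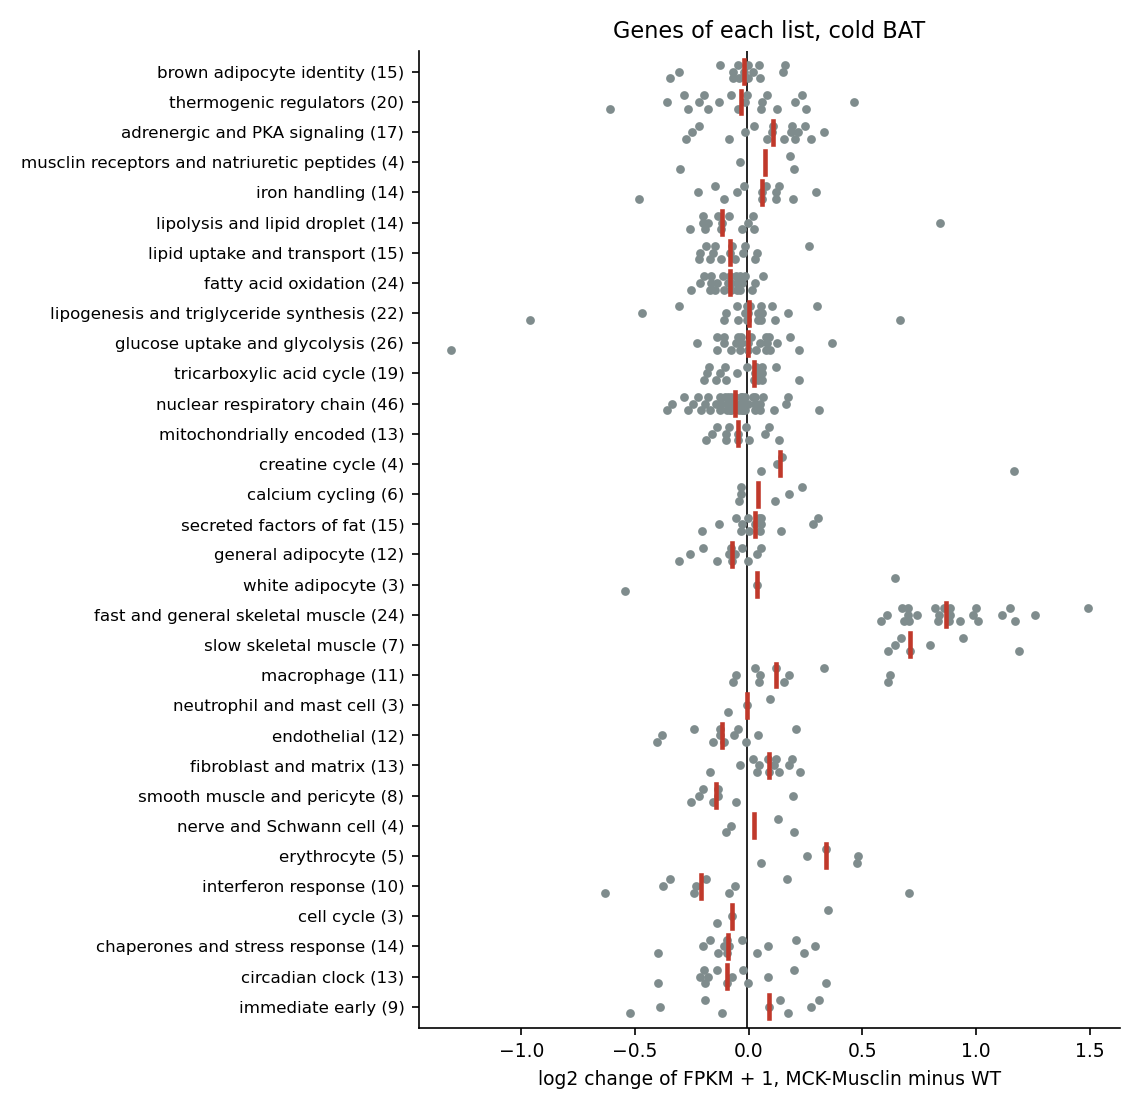
Log2 change of FPKM + 1, MCK-Musclin minus WT, in cold BAT for each gene (grey points) of every list with at least 3 genes tested, with the list's median as a red bar, the number of genes in brackets and the median of all genes as a vertical line. The fast and slow muscle lists lie wholly to the right, with medians of 0.87 and 0.71, the red cell list follows at 0.34, and the lists of brown fat lie around 0.

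The 10 largest decreases without overlap were *Gm22133*, *Selenok-ps8*, *Tmem164*, *Gm14586*, *Ly6e*, *Mir7650*, *Stx18*, *Lsm5*, *Map2k7* and *Rpl36-ps12*, and none passed the adjustment. Of these 10, 3 are processed pseudogenes and 2 are annotated as miRNA genes, of 109 and 59 bases, whose levels are uncertain because they lie in or copy other genes. *Gm22133*, which lies within an exon of the ferritin light chain gene *Ftl1*, measured 572, 331 and 470 FPKM in WT and 0.168, 323 and 0.144 FPKM in MCK-Musclin libraries, and so fell into high and near-zero values within a group. *Ly6e*, a membrane protein gene that interferon raises, measured 12.7, 23.9 and 28.6 FPKM in WT and 9.09, 10.5 and 7.86 FPKM in MCK-Musclin (log2 change -1.10, SE 0.27, adjusted p = 0.929). *Stx18*, a syntaxin of the endoplasmic reticulum, measured 15.7, 18.8 and 25.6 FPKM in WT and 8.66, 8.30 and 11.7 FPKM in MCK-Musclin (-0.98, SE 0.20, adjusted p = 0.929). *Map2k7*, a kinase of the JNK pathway, measured 14.2, 22.0 and 19.1 FPKM in WT and 4.83, 12.2 and 12.8 FPKM in MCK-Musclin (-0.91, SE 0.33, adjusted p = 0.968). Among the increases, *Gm49450* shares exons with the tubulin genes *Tuba1a* and *Tuba1b*, and *Raver1* was listed at 0 in WT library 1. *Gm49450* passed the filter through the MCK-Musclin group, with a mean of 5.54 FPKM against 0.806 in WT. *Selenok-ps8*, *Tmem164* and *Mir7650* passed it through the WT group, with MCK-Musclin means of 0.462, 0.896 and 0.589 FPKM. Selection by the filter thus enters these differences.

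Most brown fat genes had a log2 change below 0 in iWAT, and the difference between depots was tested on 9757 genes expressed in both. No gene had an adjusted p under 0.05 for the effect in BAT minus the effect in iWAT (0%), and 982 (10.1%) had an unadjusted p under 0.05. Of 14 brown identity genes tested in both depots, 13 had a change below 0 in iWAT, with a median of -0.71, and 7 had an unadjusted p under 0.05 for the difference. Of 217 program genes, 195 were below 0 in iWAT with a median of -0.31, the effect in BAT was the higher one for 179, and 46 had an unadjusted p under 0.05. WT iWAT library 3 held 5360 FPKM of the summed muscle genes, and *Cox7a1*, also a gene of muscle, had a change of -1.97 in iWAT. The part of muscle RNA in these iWAT changes was not tested. Without WT iWAT library 3, 745 genes had an unadjusted p under 0.05 for the depot difference (limma), against 982. The number was 734 without MCK-Musclin iWAT library 3 and 825 without MCK-Musclin iWAT library 2. The drop was thus not particular to the library with the largest muscle sum. *Ucp1* in iWAT measured 130, 248 and 346 FPKM in WT and 173, 31.6 and 2.91 FPKM in the libraries labelled MCK-Musclin, so that its effect in BAT exceeded that in iWAT by 3.05 on the log2 scale (interval 0.04 to 6.05, adjusted p = 0.491). *Cidea* in iWAT measured 290, 358 and 427 FPKM in WT and 294, 103 and 70.2 FPKM in MCK-Musclin, a depot difference of 1.41 (interval 0.22 to 2.61, adjusted p = 0.438).

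The iWAT library labelled MCK-Musclin 1 was the one listed at 0 for *Ostn*, and its *Ucp1* and *Cidea* lay within the WT range. Without it, 8 genes had an adjusted p under 0.05 for the depot difference: *Acot11*, *Cidea*, *Elovl3*, *Enpp4*, *Hadha*, *Ostn*, *Pank1* and *Pnpla8*. *Cidea* then had a difference of 2.00 (adjusted p = 0.0255), *Elovl3* of 2.53 (adjusted p = 0.0213), *Pank1*, the pantothenate kinase of coenzyme A synthesis, of 0.99 (adjusted p = 0.0321) and *Hadha*, of fatty acid oxidation, of 0.87 (adjusted p = 0.0365). *Ucp1* had a difference of 4.36 (adjusted p = 0.193). The median of the 14 identity genes in iWAT was -1.02 without that library. The library was singled out by *Ostn*, *Ucp1* and *Cidea*. The values of *Ostn*, *Ucp1* and *Cidea* without it, and this median, are therefore not independent of that choice. *Elovl3*, *Pank1*, *Hadha* and *Pnpla8* are on the lists of the brown fat program as well. Their calls may depend on the same choice and are not separate support for a depot difference. The iWAT table lists 13756 genes and none of the mitochondrial genome, and each change was taken within its own table. RNA of iWAT was extracted with a kit and that of BAT with TRIzol, so depot and extraction cannot be told apart in levels set across the tables.

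The muscle genes, like the brown fat genes, had changes below 0 in iWAT, but in BAT they lay above 0. All 23 fast and general muscle genes tested in both depots were above 0 in BAT and below 0 in iWAT, where the median was -1.77, and 5 had an unadjusted p under 0.05 for the difference. The iWAT values followed the libraries and not the genotype alone, since the muscle sum was 53.8, 988 and 5360 FPKM in WT and 54.0, 238 and 255 FPKM in the libraries labelled MCK-Musclin. The spread within a genotype was therefore far wider in iWAT than in BAT.

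**Figure D5:**
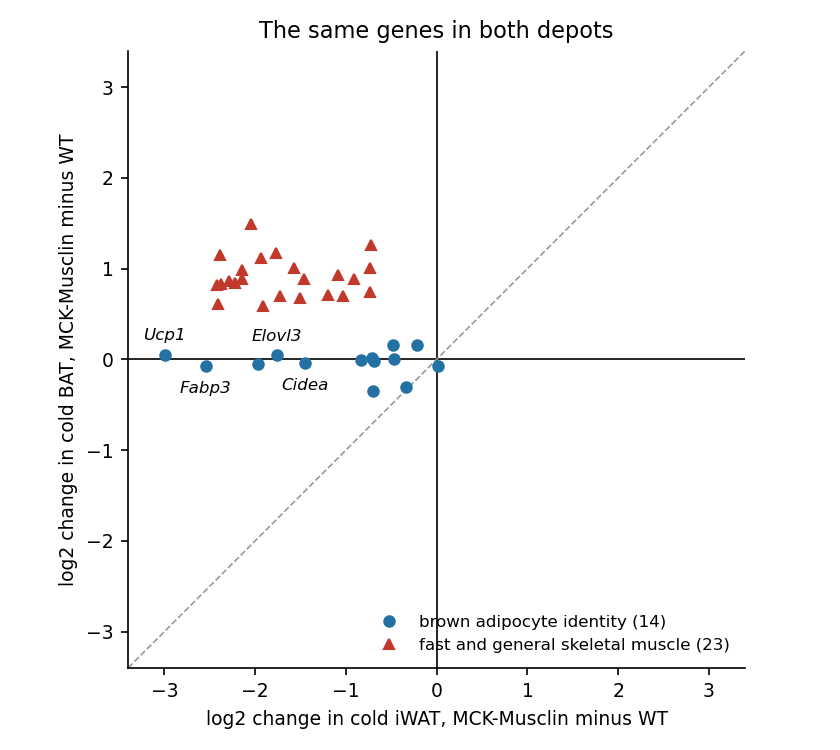
Log2 change of FPKM + 1, MCK-Musclin minus WT, in cold BAT (vertical axis) against cold iWAT (horizontal axis) for the 14 brown adipocyte identity genes (blue circles) and 23 fast and general muscle genes (red triangles) tested in both depots, with the dashed line marking equal changes. The brown genes lie near 0 on the BAT axis while reaching -2.998 for *Ucp1* on the iWAT axis, and the muscle genes are all above 0 in BAT and below 0 in iWAT.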

How the data were processed

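RNA was sequenced from cold BAT of WT and MCK-Musclin mice (3 libraries each). Per the study's methods and the submitters' processing notes, reads were filtered with fastp and Bowtie2 (2.4.1 in the notes) and aligned without strand to GRCm38 (mm10) with HISAT2 2.1.0. The authors deposited FPKM per gene, from StringTie per the methods while the notes name Cuffdiff, so depth and counts are not known here and the precision rests on the number of libraries. Fold changes, p-values and group means of the authors in the iWAT table were not used. No sample column was left unused (0).

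The BAT table held 55774 lines, of which 287 repeated another line exactly and were dropped. Genes with a mean of at least 1 FPKM were tested on log2(FPKM + 1) with limma 3.58.1 (lmFit, then eBayes with a trend) in R 4.3.3, and p-values were adjusted by Benjamini-Hochberg. Adding 1 understates changes of low genes. The study tested read counts with a count model, and its cutoff of p under 0.05 and a log2 change beyond 0.3 was applied here to limma. Adjusted p-values and intervals in the text come from this fit. Differences between depots came from a limma fit over the BAT and iWAT tables together. It took 1 spread per gene for both depots, although spreads were unequal. Fitted alone, the change of *Ucp1* had an SE of 0.138 in BAT and 1.22 in iWAT. Its p-values are therefore approximate. The fit treated all libraries as independent, and the sample titles do not say whether BAT and iWAT came from the same mice. Single values were tested by exact permutation with scipy 1.17.1.

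Genes named are *Ostn*, members of 34 lists, and the 10 largest increases and decreases past the cutoff without overlap. The genes and lists were chosen with earlier results of these data known. Values were simulated with the real means and spreads of the 10893 genes, and 200 genes with a mean of at least 5 FPKM were changed. Of these, 72 of 100 changed by 1 and 95 of 100 changed by 2 on the log2 scale had an adjusted p under 0.05. The rates do not cover weaker genes. They also hold only for 200 changed genes, where the adjustment is milder than with few. Alternatives covered the pseudocount, filter, scaling, trend, replicate block, cutoff and each library left out.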

Additional observations from a re-analysis of the deposited data

Results flagged for a closer look

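*Pnpla8*, the phospholipase, differed between BAT and iWAT by 1.223 on the log2(FPKM + 1) scale (SE 0.18, 95% interval 0.82 to 1.62, limma, adjusted p = 0.275). It was set apart because the genotypes did not overlap in either depot and the sign was opposite, with MCK-Musclin higher in BAT and lower in iWAT. In iWAT it measured 11.34, 11.01 and 11.79 FPKM in WT and 9.80, 7.80 and 8.03 FPKM in MCK-Musclin. Without the iWAT library labelled MCK-Musclin 1 the difference was 1.32 (adjusted p = 0.0351). That library was singled out by its values of brown fat genes, so this call is not independent of the choice.

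*Lsm5*, which encodes a protein of the U6 small nuclear RNA complex, differed by -1.287 (SE 0.39, limma, adjusted p = 0.402). In BAT it measured 1.92, 3.32 and 0.595 FPKM in WT and 0.293, 0.404 and 0.496 FPKM in MCK-Musclin, and in iWAT 11.7, 9.72 and 7.95 FPKM in WT and 11.8, 13.0 and 12.3 FPKM in MCK-Musclin. In BAT it passed the filter of 1 FPKM through the WT group, with a mean of 1.94 FPKM against 0.398 in MCK-Musclin. Its separation there rests on 0.595 against 0.496 FPKM, both below that filter, and is uncertain.

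Of the 9757 genes in both tables, 97 had groups that were separated in both depots with opposite signs, and these were the 2 among the named genes.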

How the results depend on the processing

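*Ostn* was called under every alternative run for BAT. The number of genes called was 1 under each setting that kept all 6 libraries and 1 to 4 when 1 library was left out: *Mir22* joined without WT 1, *Gm28051* without WT 2, *Gm49450* without WT 3, *Gm20634*, *Lgals3bp* and *Tmem164* without MCK-Musclin 1, and *Gm22133* and *Klf9* without MCK-Musclin 2. At the cutoff, leaving out 1 library gave 167 to 280 higher and 240 to 301 lower genes, and 5039 to 5566 intervals inside 0.5. Adding 0.1 instead of 1 before the log, with all 6 libraries kept, gave 4560 inside against 6518. The share of bounded genes thus depends on the value added. A minimum mean of 5 FPKM, which tests fewer genes, gave 102 higher, 114 lower and 4121 intervals inside. No filter gave 17188 inside, a log2 cutoff of 0.5 gave 98 higher and 73 lower, and a range of 0.3 held 1337. The depot difference was called for 0 to 8 genes with 1 library left out: *Erp29* without MCK-Musclin BAT 3, *Nme2* without WT iWAT 3, *Mob1a* and *Rpl14-ps1* without MCK-Musclin iWAT 2, and the 8 named above without the iWAT library labelled MCK-Musclin 1. The cause was not tested. The median of the brown identity genes ran from -0.0998 to 0.0042 and that of the fast and general muscle genes from 0.58 to 1.07.

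With a replicate block, 214 genes were higher and 246 lower, of which 159 and 183 were shared with the fit without it, and 1 was called. The sample titles number the libraries and give no pairing. Deviations of same-numbered libraries correlated at -0.0951, -0.0046 and 0.0094, and those of differently numbered ones at -0.084 to 0.079. With so few libraries these values cannot show or exclude a pairing. *Dgat2* missed the size cutoff under median-ratio (-0.30), quantile (-0.29) and mitochondria-free (-0.28) scaling, and in 4 of 6 fits that left out a library. *Ndufa4* was lost in 5 of 6 fits that left out a library, and *Cox8b* without WT 3 or MCK-Musclin 1. With 3 libraries per group and FPKM alone, changes of low genes were poorly bounded.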

Other observations

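Among lists not described above, 13 circadian clock genes had a median log2 change of -0.10 in BAT, 14 chaperone and stress genes -0.09, 9 immediate early genes 0.09 and 3 cell cycle genes -0.07, and none reached the cutoff. With 1 library left out the immediate early median ran from -0.24 to 0.40 and the chaperone median from -0.12 to 0.08. *Nr4a1*, an immediate early gene that adrenergic signals raise in brown fat, ranged widely within both groups, at 0.847, 47.1 and 1.95 FPKM in WT and 14.7, 2.52 and 1.10 FPKM in MCK-Musclin. *Lep*, the white adipocyte hormone leptin, measured 6.24, 2.28 and 6.44 FPKM in WT and 2.42, 5.74 and 1.48 FPKM in MCK-Musclin. *Adipoq*, adiponectin, measured 283, 293 and 325 FPKM in WT and 306, 289 and 288 FPKM in MCK-Musclin (log2 change -0.03). The 12 general adipocyte genes had a median of -0.07, and 10 intervals lay inside 0.5.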
